A study of Mus musculus with 8 samples.

Results

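Cct7 encodes a subunit of CCT (TRiC), the barrel-shaped chaperonin of the cytosol that newly made actin and tubulin need to fold. Mouse E14 embryonic stem cells carrying a doxycycline-inducible short hairpin against Cct7 were compared with their own control, and the comparison is described across all genes of the table. It uses 4 of the 8 libraries of the series, 2 of the knockdown (Cct7 KD) and 2 of its control (Cct7 KD Ctr), and 20897 genes, of which 13588 averaged 1 FPKM or more across these 4 libraries and were tested. The other 7309 lay below that level. Control cells received virus with the empty pLKO-Tet on-Puro vector, and knockdown cells the same vector with the Cct7 hairpin. Both were selected with puromycin at 0.5 µg/ml for 14 days, positive clones were picked, and both were then given doxycycline at 2 µg/ml for 2 days, mainly in serum with LIF. How many clones stand behind each group is not given, nor whether the 2 libraries of a group came from separate cultures, so every p-value measures only the spread between these libraries. The question behind the knockdown was whether loss of CCT7 lets stem cells move towards totipotency.

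CCT works late in protein synthesis: prefoldin and phosducin-like proteins hand it unfolded chains, the chains fold inside its closed chamber, and released actin and tubulin monomers join the cytoskeleton. Cells answer unfolded protein with separate programmes, among them the heat shock response in the cytosol, the unfolded protein response of the endoplasmic reticulum, and the integrated stress response, in which ATF4 drives genes of amino acid supply and redox defence. Embryonic stem cells in serum with LIF are held in a pluripotent state by OCT4, SOX2 and NANOG, and FGF, Nodal and retinoic acid signals move them out of it.

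Values are FPKM (fragments per kilobase of transcript, scaled to library size) as the authors deposited them. Changes are differences in log2(FPKM + 1), knockdown minus control, from limma with Benjamini-Hochberg adjustment over the 13588 genes. On this scale the changes of genes near 0 come out too small. "Rose" and "fell" stand for an adjusted p under 0.05. The steps of the low values place the depth at 22.3 and 23.3 M fragments in the controls and 20.7 and 18.8 M in the knockdown, and 1 fragment on 1 kb of transcript was worth between 0.0430 and 0.0531 FPKM. The Cct5 KD libraries were not used, because 19881 of their 19896 genes shared with the Cct7 table were at least 1.125 times as high as in the Cct7 KD library with their number.

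Most tested genes differed. Of 13588, 6702 rose (49.3%) and 4353 fell (32.0%), together 81.4%, and with a fold of at least 2 on the log2(FPKM + 1) scale 1837 rose (13.5%) and 897 fell (6.60%). In all, 1028 tested genes passed the filter only through the knockdown libraries and 461 only through the controls, which fixed their direction. This is said below for many, but not all, of the lists in which it holds for 2 or more members. The groups did not overlap for 90.6% of the genes, so a count of changed members below is read against these shares. By contrast, 4 of 12762 genes (0.0313%) differed 2-fold between the means of Cct7 KD Ctr and Cct5 KD Ctr, the other empty-vector control, against 2717 of 13552 between Cct7 KD and its control. The median gene rose by 0.15 as deposited, and median-of-ratios scaling took it to -0.07. After that scaling 5014 genes rose and 5953 fell, so that 45.7% of the calls were rises against 60.6% before. With each chromosome centred at its median, 5459 rose and 5460 fell. Of the 15 genes named below with no call, 13 became falls after scaling, all but Hspa1b and Axin2. Scaling turned 180 calls from a rise to a fall and 0 the other way, and counts after scaling stand in parentheses below. Of the 263 genes named here that passed the test, 263 had groups that did not overlap.

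**Figure D1:**
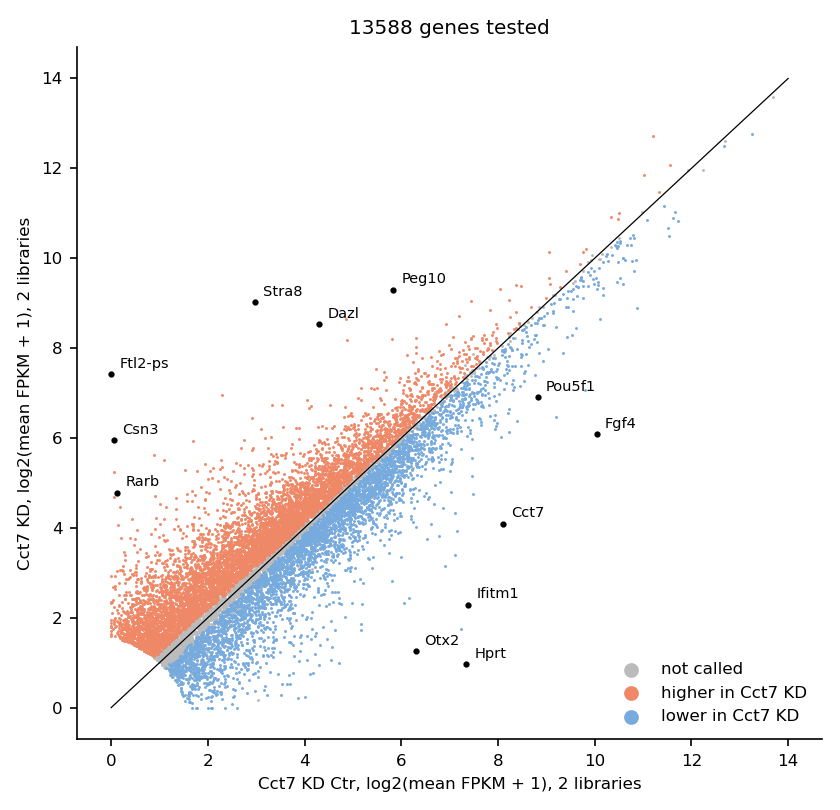
Mean level of each of the 13588 tested genes in control (x axis) and knockdown (y axis), both as log2(FPKM + 1) over 2 libraries; orange genes rose, blue genes fell, and the line marks equal levels. Cct7, Hprt, Otx2 and Ifitm1 lie far below the line, and Stra8, Csn3, Rarb and Ftl2-ps far above it.

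The hairpin's target was low. Cct7 (ENSMUSG00000030007, chromosome 6, 85451514 to 85468475) stood at 269 and 280.1 FPKM in the controls and 14.4 and 17.8 in the knockdown, 5.86% of the control mean, a change of -4.02 (SE 0.0936, adjusted p 2.7e-06). Some genes other than the target differed as strongly. Hprt, the purine salvage enzyme that some sublines of E14 lack, went from 161 and 161 to 1.12 and 0.781 FPKM. The pseudogene Ftl2-ps was listed at 0 in both controls and at 184 and 158 FPKM in the knockdown, and the processed pseudogene Rps15a-ps7 went the other way, from 142 and 155 to 2.58 and 2.16 FPKM. Ftl1, the ferritin light chain whose reads Ftl2-ps may share, fell from 1085 and 1137 to 393 and 411 FPKM. In all, 8 genes were under 0.1 FPKM in both controls and at 5 or more in both knockdown libraries, and 0 genes were the reverse. Besides Ftl2-ps they were Csn3 (a casein), Hoxb1, Hoxb4, the 2-cell gene Gm20767, the microRNA gene Mir10a and the pseudogenes Gm6394 and Gm17737.

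Changes also followed chromosomes. The median change was -0.18 over 781 genes of chromosome 1, where 247 rose and 390 fell, and -0.26 over 1117 genes of chromosome 11, where 326 rose and 609 fell. The 16 autosomes other than 1, 8 and 11 had medians between 0.09 and 0.31. In windows of about 40 neighbouring genes the median was below 0 in 14 of 16 windows of chromosome 1 and 23 of 24 of chromosome 11. Chromosome 8 was mixed along its length, with 4 successive stretches of equal gene number at -0.19, 0.22, 0.27 and -0.27. The X chromosome had a median of 0.39 over 523 genes, 332 of which rose and 113 fell. All 6 tested Y-linked genes fell, among them the helicase Ddx3y from 15.3 and 15.4 to 6.85 and 7.41 FPKM, the translation initiation subunit Eif2s3y from 44.9 and 44.2 to 23.03 and 22.02 FPKM and the demethylase Uty from 7.87 and 7.33 to 2.03 and 1.86 FPKM. After scaling the medians were -0.41, -0.49 and 0.17 for chromosomes 1, 11 and X, and within bins of equal GC content -0.37, -0.42 and 0.22 relative to their bin. Cct7 KD Ctr and Cct5 KD Ctr differed by a median of 0.01 to 0.02 on those chromosomes. Copy number was not measured. Since the hairpin came only with the cells that differ in Hprt, these pseudogenes and these chromosomes, an effect of the hairpin and a difference of cell background cannot be told apart in any result below.

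**Figure D2:**
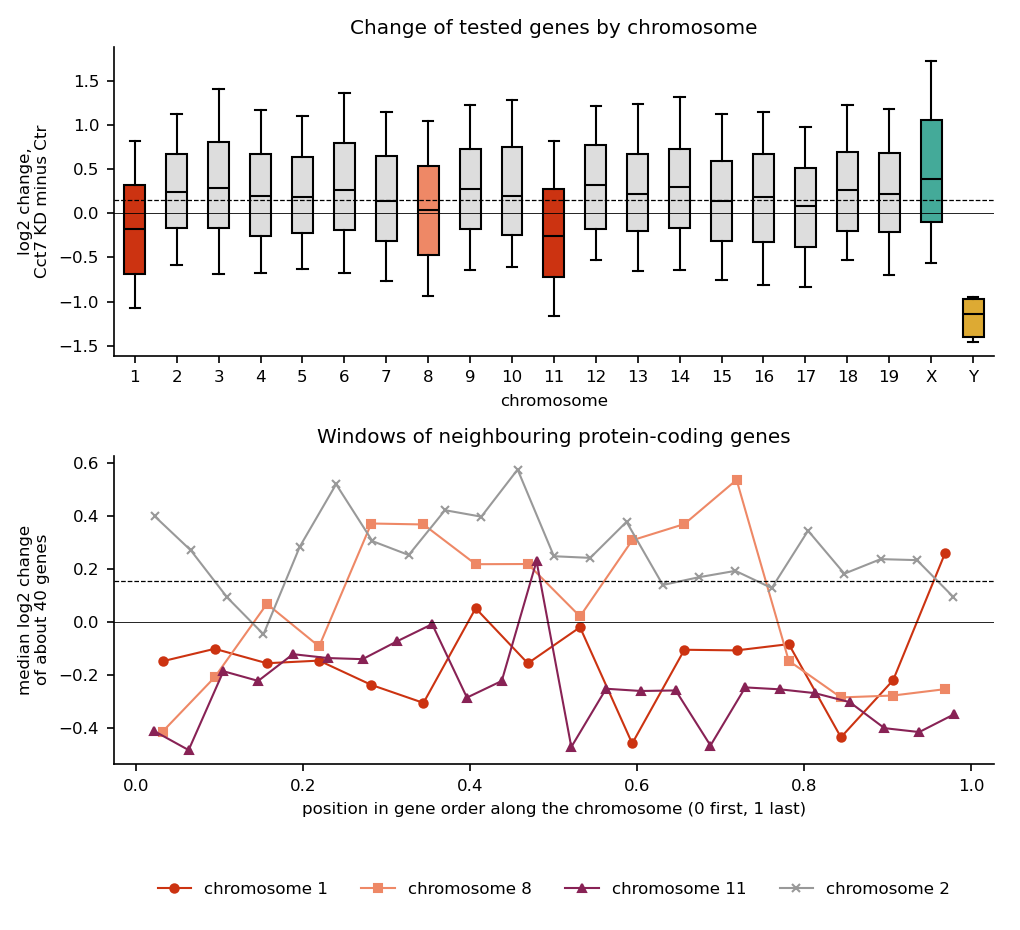
Top: log2 change of tested genes by chromosome (box, middle 50% of genes with the median; whiskers, 10th to 90th percentile; dashed line, median of all genes). Bottom: median change in windows of about 40 neighbouring protein-coding genes along chromosomes 1, 8, 11 and, for comparison, 2; chromosomes 1 and 11 run below 0 over nearly their whole length, and chromosome 8 only at its ends.

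The other CCT subunits fell less than Cct7 or did not fall, and the pattern was uneven. Among the 9 CCT genes 7 fell and 1 rose (9 and 0 after scaling). Cct4 went from 433 and 440.1 to 168 and 169 FPKM, a change of -1.37 (SE 0.0250), and -1.11 with chromosomes centred. Cct3 fell from 320.4 and 329 to 197 and 192 FPKM and Cct6b, a testis form, from 2.58 and 1.95 to 0.720 and 0.594 FPKM. Cct6b passed the filter only through the controls, which fixed its direction. Cct2, Cct5 and Cct6a had changes of -0.40, -0.38 and -0.22, all called. Tcp1 stood at 297 and 302 against 314 and 306 FPKM with no call, and Cct8 rose by 0.11, turning to -0.14 after scaling. Of 10 cofactors that bring or regulate substrates, 5 fell and 1 rose (8 and 1 after scaling): the prefoldin subunit Pfdn2 fell from 62.9 and 66.2 to 35.03 and 34.2 FPKM and the phosducin-like Pdcl from 34.9 and 35.7 to 24.7 and 25.6 FPKM, while Txndc9 rose from 24.7 and 25.1 to 34.7 and 34.4 FPKM.

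Messages of the chaperonin's main clients split by gene. Of 16 tested tubulins 7 rose and 8 fell (4 and 8 after scaling), with a median of -0.11 (-0.36 after scaling). The abundant Tubb5 and Tuba1b fell slightly, from 449 and 458 to 395 and 399 FPKM and from 268 and 293 to 247 and 239 FPKM. Tuba4a fell from 39.4 and 40.9 to 19.9 and 20.5 FPKM and the neuronal Tubb3 from 14.5 and 15.4 to 9.27 and 9.75 FPKM. Scarcer isotypes rose: the testis isotype Tuba3b from 3.88 and 3.67 to 37.96 and 38.8 FPKM, Tubb2a from 10.03 and 9.46 to 42.02 and 43.8 FPKM, Tubb6 from 27.8 and 27.7 to 76.3 and 76.5 FPKM and Tubb4a from 0.783 and 0.655 to 3.46 and 3.85 FPKM. Tubb4a passed the filter only through the knockdown. Tuba3b shares near-identical sequence with Tuba3a, which stood at 39.6 and 40.7 against 45.7 and 47.97 FPKM, and how the authors' counting shared reads between them is not given.

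Neither of the 2 tested actins rose. Actb stood at 348 and 348 against 358 and 355 FPKM with no call, and Actg1, on chromosome 11, fell from 397 and 388 to 287 and 283 FPKM. Acta1, Acta2 and Actc1 lay below the filter. Acta1 stood at 0.0928 and 0.267 against 1.20 and 1.21 FPKM, Acta2 at 0.0659 and 0.190 against 0.757 and 0.651, and Actc1 at 0.121 and 0.0874 against 0.131 and 0.216. Of 18 actin-binding genes 14 rose and 2 fell (10 and 5 after scaling), led by the tropomyosin Tpm4 from 42.02 and 44.7 to 184 and 185 FPKM, Tagln from 1.43 and 1.48 to 8.75 and 8.47 FPKM and the profilin Pfn2 from 4.77 and 4.45 to 18.1 and 20.2 FPKM. Non-muscle myosin Myh9 and the profilin Pfn1 fell, the former from 58.3 and 56.4 to 31.7 and 32.6 FPKM. In the list of YAP, its DNA-binding TEAD partners and its targets, 11 of 13 tested members rose and 1 fell (10 and 2 after scaling). Tead1 went from 22.02 and 20.6 to 41.7 and 42.8 FPKM, Tead4 from 3.49 and 3.25 to 7.26 and 7.44 FPKM and Wwtr1 (TAZ) from 11.6 and 11.9 to 23.5 and 23.3 FPKM, while Yap1 itself stood at 45.3 and 44.96 against 46.7 and 46.2 FPKM with no call. The target Amotl2 rose from 4.36 and 4.67 to 24.3 and 23.5 FPKM.

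The stress programmes differed from one another. In the list of integrated stress response genes, 16 of 19 tested members rose and 3 fell (13 and 4 after scaling), with a median of 1.17 (0.93 after scaling) against 0.15 (-0.07) over all genes; 4 of them passed the filter only through the knockdown libraries. Atf4, its central factor, went from 57.7 and 56.7 to 117 and 116 FPKM, 2.03-fold. The stress factors Atf3 and Ddit3 (CHOP) rose from 0.939 and 0.608 to 13.03 and 13.9 FPKM and from 4.12 and 4.0 to 33.96 and 34.1 FPKM, changes of 3.03 (SE 0.105) and 2.79 (SE 0.0398). Chac1, which breaks down glutathione, rose from 1.23 and 1.39 to 10.4 and 10.4 FPKM. The lipoprotein receptor Vldlr rose from 0.690 and 0.608 to 5.403 and 5.34 FPKM, and Slc7a11, the cystine importer, from 0.129 and 0.0887 to 2.75 and 2.74 FPKM. All knockdown values of these genes were well above both controls, but Atf3, Vldlr and Slc7a11 passed the filter only through the knockdown libraries. The serine and folate enzymes on the same list went down: Phgdh fell from 79.8 and 80.5 to 46.7 and 47.2 FPKM, Mthfd2 from 195 and 199.6 to 123 and 137 FPKM and Psat1 from 469.7 and 454 to 402 and 408 FPKM. Asns, asparagine synthetase, rose from 132 and 128 to 252 and 252 FPKM.

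Promoters of the list were searched for TGATGNAA, a sequence that ATF4 and its C/EBP partners are known to bind. The search covered both strands from 250 bases before to 50 after the start in the RefSeq promoter table (GRCm38.p6). The sequence was present in 7 of 19 members (36.8%), in 1219 of 27025 promoters of all genes (4.51%) and in 269 of 9818 promoters of tested genes (2.74%). Atf4's targets were in part named from such sites, so the share describes the list and does not test it. Of the 269 tested genes 134 rose and 87 fell, close to the shares over all genes. A match is a run of letters, and no binding was measured here. The 250 bases before the start of Chac1 (chr2:119350992-119351241, plus strand), Atf3 (chr1:191183334-191183583, minus strand) and Vldlr (chr19:27216770-27217019, plus strand), 3 of the members with the largest rises, are shown 5′ to 3′ with the match in capitals; its first base lies 193, 110 and 200 bases before the start.
Chac1: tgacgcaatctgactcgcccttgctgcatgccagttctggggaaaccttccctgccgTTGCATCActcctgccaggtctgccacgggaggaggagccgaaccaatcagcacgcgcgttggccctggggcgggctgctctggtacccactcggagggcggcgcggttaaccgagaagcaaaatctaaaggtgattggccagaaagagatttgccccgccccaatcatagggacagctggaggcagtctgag
Atf3: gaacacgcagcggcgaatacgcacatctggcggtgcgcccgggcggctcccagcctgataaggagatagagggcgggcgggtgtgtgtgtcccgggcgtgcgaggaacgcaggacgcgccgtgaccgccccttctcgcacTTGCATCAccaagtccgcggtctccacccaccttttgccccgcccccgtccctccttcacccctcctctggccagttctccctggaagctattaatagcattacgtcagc
Vldlr: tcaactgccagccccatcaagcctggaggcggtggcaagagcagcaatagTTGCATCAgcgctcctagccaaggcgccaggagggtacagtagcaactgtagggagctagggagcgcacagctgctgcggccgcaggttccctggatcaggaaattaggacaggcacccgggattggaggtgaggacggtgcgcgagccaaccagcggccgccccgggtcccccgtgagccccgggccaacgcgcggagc

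NRF2 target genes, which detoxify oxidants, showed a split: 9 of 13 tested members rose and 3 fell (9 and 4 after scaling), with a median of 0.57 (0.32 after scaling). Sulfiredoxin Srxn1 rose from 3.88 and 3.86 to 40.95 and 38.8 FPKM, the quinone reductase Nqo1 from 10.1 and 11.4 to 73.7 and 75.4 FPKM, malic enzyme Me1 from 17.4 and 18.1 to 53.5 and 51.9 FPKM and thioredoxin reductase Txnrd1 from 74.3 and 75.5 to 203 and 206 FPKM. The glutathione transferases Gstm1 and Gsta4 fell, Gsta4 from 278 and 297 to 183 and 186 FPKM. In the endoplasmic reticulum list 13 of 18 tested members rose and 3 fell (10 and 7 after scaling). Its master chaperone Hspa5 (BiP) went from 114 and 117 to 235 and 228 FPKM, calreticulin Calr from 224 and 229.6 to 462 and 453 FPKM, Dnajc3 from 7.41 and 6.63 to 25.7 and 25.3 FPKM and the degradation factor Herpud1 from 3.76 and 4.15 to 17.97 and 18.3 FPKM. Xbp1 had no call, at 29.2 and 30.04 against 30.4 and 28.7 FPKM, and Sdf2l1 fell from 17.3 and 18.2 to 13.7 and 13.7 FPKM.

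The heat shock list did not move as a whole: 9 of 23 tested members rose and 10 fell (8 and 13 after scaling), with a median of -0.08 (-0.32 after scaling). The inducible Hspa1b stood at 1.87 and 2.02 against 2.21 and 2.32 FPKM with no call, and Hspa1a, below the filter, at 0.663 and 0.651 against 0.795 and 0.803. The constitutive Hspa8 had no call either, at 6586 and 6627 against 6258 and 6263. The immunophilin Fkbp4 fell from 198 and 200.4 to 80.4 and 81.6 FPKM, the co-chaperone Stip1 from 290.1 and 296 to 193 and 193 FPKM and the mitochondrial chaperonin Hspd1, on chromosome 1, from 580.4 and 601 to 359 and 350.2 FPKM. Those that rose most were Serpinh1, a collagen chaperone of the endoplasmic reticulum, from 7.63 and 7.57 to 72.3 and 73.4 FPKM, and the small heat shock protein Cryab from 1.12 and 1.04 to 5.601 and 6.305 FPKM. Proteasome subunits were also mixed, 17 of 38 rising and 15 falling (6 and 22 after scaling), with medians of 0.04 and -0.21.

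Among p53 targets 15 of 21 tested members rose and 4 fell (13 and 6 after scaling), with a median of 0.47 (0.23 after scaling). The cell cycle inhibitor Cdkn1a (p21) went from 92.2 and 89.6 to 162 and 168 FPKM, the p53 ligase Mdm2 from 64.03 and 61.5 to 106 and 108 FPKM, and the death factor Pmaip1 (NOXA) from 10.6 and 10.5 to 48.8 and 47.9 FPKM. Plk3 rose from 4.68 and 4.42 to 21.7 and 21.96 FPKM and the membrane protein Perp from 9.12 and 8.59 to 30.3 and 31.3 FPKM. Bbc3 (PUMA) went against them, from 9.49 and 9.46 to 4.35 and 3.65 FPKM. Trp53 itself, which lies on chromosome 11, rose from 79.03 and 77.9 to 160.0 and 160.0 FPKM. The caspase gene Casp8, which starts receptor-driven cell death, rose from 1.09 and 1.29 to 5.64 and 5.37 FPKM.

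**Figure D3:**
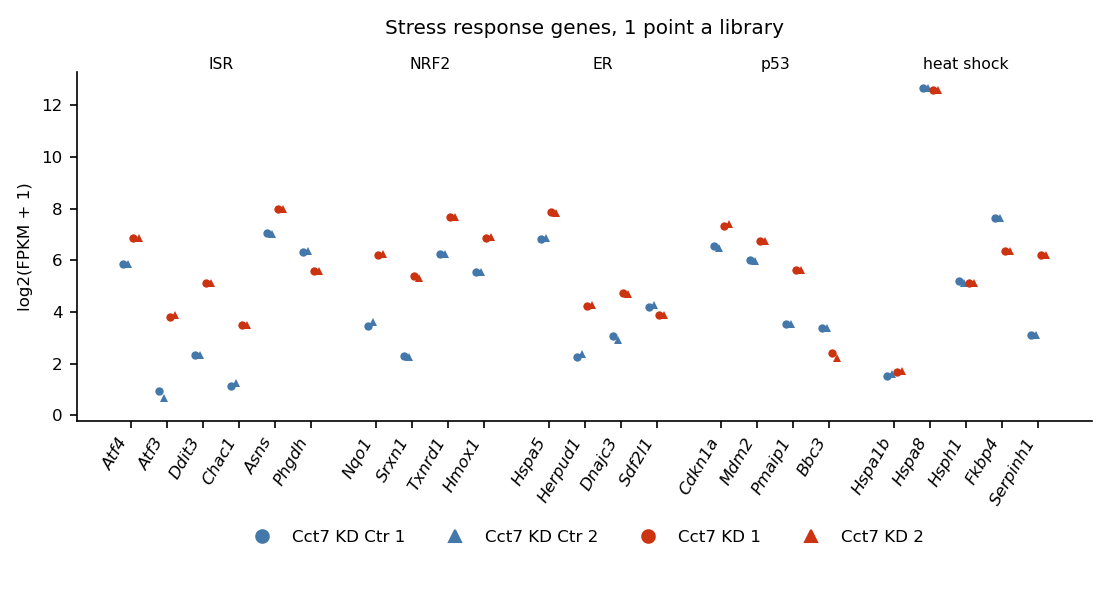
Level of stress response genes in each of the 4 libraries, as log2(FPKM + 1), grouped by programme (ISR, integrated stress response); blue, Cct7 KD Ctr, red, Cct7 KD. The red points of Atf3, Ddit3, Chac1, Nqo1, Srxn1, Herpud1 and Serpinh1 lie far above the blue ones, while those of Hspa1b, Hspa8 and Hsph1 lie beside them and those of Phgdh, Bbc3 and Fkbp4 below.

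On the log2(FPKM + 1) scale, and with pseudogenes and unnamed gene models aside, the gene that rose most was Stra8, the retinoic acid-inducible gate to meiosis, from 7.04 and 6.61 to 520.2 and 518 FPKM, 75.99-fold, a change of 6.05 (SE 0.0348, adjusted p 4.6e-07). With a pseudocount of 0.1 Csn3 (8.73) and Rarb (7.13) changed more than Stra8 (6.23). Of 21 tested retinoic acid genes 17 rose and 4 fell (17 and 4 after scaling), but 10 of the 21 passed the filter only through the knockdown libraries, so their direction was fixed by the filter. Receptors differed: Rarb, itself a retinoic acid target, went from 0.0632 and 0.121 to 26.9 and 26.2 FPKM and Rxra from 2.55 and 2.35 to 6.03 and 5.86 FPKM, while Rara, on chromosome 11, fell from 20.9 and 20.9 to 10.03 and 10.4 FPKM, Rxrb from 11.2 and 11.2 to 6.78 and 7.26 FPKM and Rarg from 30.4 and 30.4 to 25.9 and 25.05 FPKM. The retinol transporter Stra6 rose from 0.313 and 0.300 to 7.07 and 7.54 FPKM. Of the cellular retinoic acid-binding proteins, Crabp2 rose from 4.66 and 4.56 to 10.1 and 12 FPKM and Crabp1 fell from 25.9 and 24.3 to 14.9 and 16.5 FPKM.

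Enzymes on both sides of retinoic acid metabolism were higher, and the 4 given here passed the filter only through the knockdown. Aldh1a2, which makes it, went from 0.553 and 0.360 to 1.998 and 1.801 FPKM and stayed low. Cyp26a1 and Cyp26b1, which degrade it, went from 0.125 and 0.144 to 21.5 and 20.6 FPKM and from 0.150 and 0.103 to 4.51 and 4.88 FPKM, and Dhrs3, which turns retinal back to retinol, from 0.555 and 0.642 to 3.29 and 3.53 FPKM. The homeobox targets Cdx1 and Meis2 rose from 0.332 and 0.123 to 9.62 and 9.32 FPKM and from 1.31 and 1.21 to 6.69 and 6.69 FPKM. Retinoid levels were not measured. Of 30 HOX genes in the table, 9 passed the filter, all through the knockdown libraries. Hoxb1, an early retinoic acid target, went from 0.0429 and 0 to 5.28 and 5.66 FPKM. Hoxb4 and Hoxb9, on chromosome 11, reached 6.43 and 6.71 and 8.45 and 8.66 FPKM from 0.0523 and 0.0501 and 0.556 and 0.367. Hoxa5 was listed at 0 in both controls and at 2.31 and 2.68 in the knockdown. The highest below the filter was Hoxb2, at 0 in the controls and 1.95 and 2.04 in the knockdown.

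**Figure D4:**
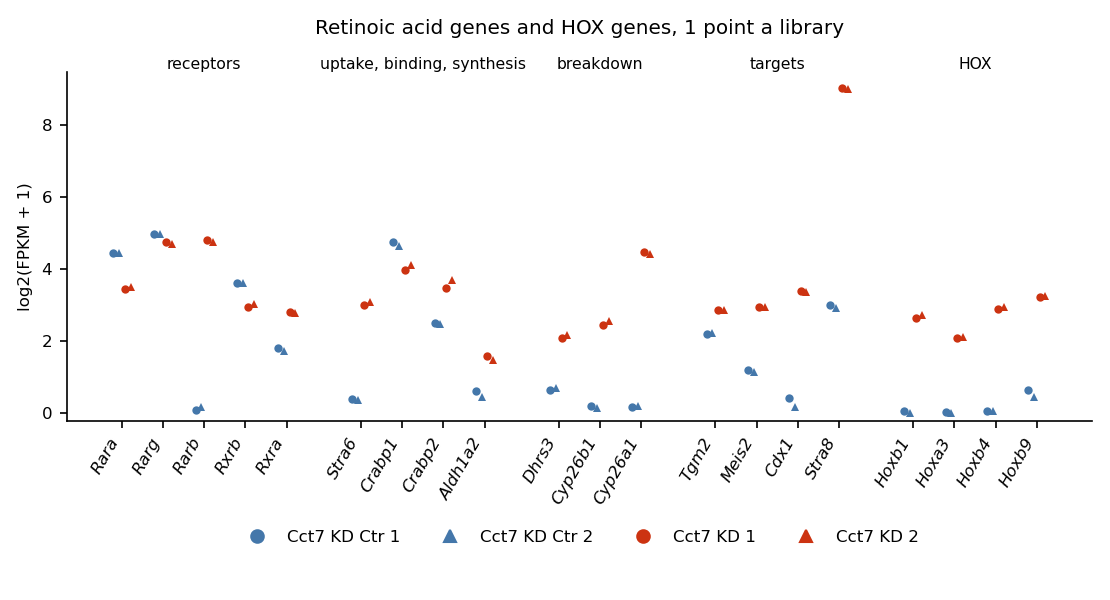
Level of retinoic acid genes by role, and of HOX genes, in each of the 4 libraries as log2(FPKM + 1); blue, Cct7 KD Ctr, red, Cct7 KD. Receptors Rara, Rarg and Rxrb and the binding protein Crabp1 lie lower in the knockdown, and the other genes shown lie higher, many from close to 0.

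In FGF signalling, ligands, receptors and targets went in different directions. All 4 tested FGF ligands fell, 3 of which passed the filter only through the controls: Fgf4, the main autocrine FGF of stem cells, from 1050.5 and 1051 to 65.5 and 67.96 FPKM, 15.7-fold lower, Fgf15 from 13.9 and 13.4 to 0.160 and 0.176 FPKM, Fgf17 from 9.06 and 7.72 to 0.256 and 0.157 FPKM and Fgf10 from 9.21 and 6.95 to 0.492 and 0.309 FPKM. The 4 tested FGF receptors rose by 0.22 to 0.74 (1 of 3 tested after scaling rose and 0 fell), and Fgfr3 passed the filter only through the knockdown. The FGF targets went both ways. Etv5 and Spry2 fell, from 104 and 103 to 29.4 and 30.1 FPKM and from 33.4 and 33.2 to 14.7 and 13.8 FPKM. The immediate early genes Egr1 and Fos rose, from 1.57 and 1.47 to 17.03 and 17.8 FPKM and from 1.04 and 1.42 to 12.2 and 12.3 FPKM, as did the ERK phosphatases Dusp5 from 2.24 and 2.099 to 15.4 and 16.6 FPKM and Dusp6 from 10.1 and 10.6 to 18.7 and 17.4 FPKM. In all 8 of 14 targets rose and 3 fell (8 and 5 after scaling), 57.1% and 21.4% against 49.3% and 32.0% over all genes.

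In the Nodal list 3 of 14 tested members rose and 9 fell (2 and 11 after scaling), with a median of -0.63 (-0.87 after scaling). The feedback inhibitors Lefty1 and Lefty2, both on chromosome 1, fell from 22.1 and 22.9 to 1.07 and 1.11 FPKM and from 27.2 and 27.99 to 3.19 and 2.87 FPKM. The co-receptor Tdgf1 (Cripto) fell from 884 and 891 to 132 and 135 FPKM, the ligand Gdf3 from 25.9 and 24.5 to 3.96 and 4.11 FPKM, and Nodal itself less, from 17.4 and 17.5 to 10.1 and 10.5 FPKM. The receptor Acvr2a and Smad3 rose, from 3.46 and 3.72 to 7.43 and 6.66 FPKM and from 4.24 and 4.53 to 7.05 and 7.37 FPKM. Of 12 BMP genes 6 rose and 6 fell (6 and 6 after scaling), 1 passing the filter only through the knockdown and 2 only through the controls. The receptors Bmpr1a and Bmpr2, Smad1, Smad5 and the ligands Bmp4 and Bmp8b rose, Bmpr1a from 18.3 and 19.1 to 34.5 and 34 FPKM and Smad1 from 6.06 and 4.9 to 11.4 and 11.7 FPKM. The readouts Id1, Id2, Id3 and Id4 fell, Id2 from 17.5 and 19.2 to 5.16 and 4.65 FPKM and Id1 from 54.1 and 60.3 to 40.03 and 40.02 FPKM, and so did the ligand Bmp7 and the decoy receptor Bambi.

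Notch genes fell apart from Notch2: 8 of 9 fell and 1 rose (8 and 1 after scaling), 3 of them passing the filter only through the controls. The ligand Jag1 went from 5.64 and 6.298 to 0.806 and 0.849 FPKM, Dll1 from 2.498 and 2.503 to 0.457 and 0.296 FPKM and the target Hes1 from 13.8 and 14.5 to 9.05 and 6.46 FPKM, while Notch2 rose from 3.98 and 4.04 to 5.88 and 5.68 FPKM. In the LIF pathway the receptor Lifr fell from 202 and 197 to 104 and 103 FPKM and the feedback inhibitor Socs3 from 49.4 and 52.3 to 33.2 and 34.3 FPKM, and the kinases Jak1 and Jak2 rose, from 14.1 and 13.6 to 33.9 and 33.6 FPKM and from 2.197 and 2.35 to 11.6 and 12.2 FPKM. Of 15 tested WNT genes 7 rose and 5 fell (6 and 6 after scaling), close to the shares over all genes. Of these, 2, Wnt8a among them, passed the filter only through the knockdown and 1, Lef1, only through the controls. The receptor Fzd7 fell from 41.1 and 40.5 to 7.69 and 7.66 FPKM and the factor Lef1 from 5.78 and 5.58 to 0.760 and 0.615 FPKM. The ligands Wnt7b and Wnt8a rose, Wnt7b from 0.987 and 1.13 to 5.205 and 4.91 FPKM. The common readout Axin2 had no call, at 3.72 and 3.72 against 4.12 and 4.13 FPKM.

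Pluripotency genes fell: 27 of 33 fell and 1, Stat3, rose (32 and 1 after scaling), with a median of -1.69 (-1.90 after scaling). The core factors fell to similar shares of the control mean, 26.4% for Pou5f1 (OCT4), 24.6% for Sox2 and 22.97% for Nanog. Naive factors were not uniform. Zfp42 (REX1) fell from 579 and 587 to 87.8 and 87.5 FPKM and Prdm14 from 16.2 and 17.03 to 1.78 and 2.02 FPKM, Klf4 only from 21.8 and 22.4 to 17.6 and 18.4 FPKM, and Klf5 and Tfcp2l1 had no call, Klf5 at 32.4 and 32.7 against 33.2 and 34.8. Genes of the next, formative stage fell as well: 15 of 18 fell and 3 rose (15 and 3 after scaling). Of these 3 passed the filter only through the controls and 1 only through the knockdown. The fall was led by Otx2 from 76.3 and 79.7 to 1.36 and 1.396 FPKM, 56.5-fold lower. The threonine dehydrogenase Tdh, used by mouse stem cells to feed one-carbon metabolism, fell from 118 and 119.6 to 7.57 and 8.19 FPKM, and Mycn from 66.6 and 64.1 to 3.87 and 4.12 FPKM.

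Genes of the 2-cell state, the readout of the study's question, rose from low levels. Of 25 tested, 24 rose and 1, Obox6, fell (24 and 1 after scaling). However, 8 passed the filter only through the knockdown and 1, Obox6, only through the controls. In FPKM the members differ: Zscan4d went from 5.81 and 5.49 to 23.3 and 21.7 FPKM and Zscan4c from 5.46 and 5.96 to 18.01 and 18.9 FPKM, Zfp352 from 0.295 and 0.283 to 6.74 and 6.07 FPKM, Tdpoz4 from 0.442 and 0.347 to 11.5 and 10.99 FPKM and the Eif1a-like gene Gm21761 from 6.54 and 6.46 to 85.7 and 85.6 FPKM. Many belong to families of near-identical copies (Zscan4, Usp17l, Tdpoz), whose single values depend on how reads were shared. Duxf3, the mouse Dux gene, lay below the filter at 0 and 0.144 against 0.291 and 0.249 FPKM. Among factors that hold the state in check 15 of 23 fell and 3 rose (20 and 1 after scaling). Trim28 fell from 1533 and 1532 to 685 and 691 FPKM and the histone methyltransferase Ehmt2 from 30.5 and 30.4 to 11.9 and 11.7 FPKM, while Setdb1 had no call, at 33.4 and 33.3 against 34.7 and 34.99. Of 5 activators of the state 2 rose and 2 fell (2 and 3 after scaling). Trp53, described above, and Nelfa rose, Nelfa from 28.3 and 26.8 to 40.6 and 40.2 FPKM. Tbx3 and Dppa4 fell, Dppa4 from 90.8 and 89.5 to 70.4 and 77.1 FPKM, and Dppa2 had no call, at 29.4 and 28.4 against 27.7 and 26.1.

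Germline genes rose from low but measurable levels: 31 of 35 tested members rose and 4 fell (30 and 4 after scaling), with a median of 1.36 (1.12 after scaling), and 2 passed the filter only through the knockdown. They belong to successive steps. The RNA-binding protein Dazl, which licenses germ cells, rose from 18.2 and 19.4 to 377 and 363 FPKM. The synaptonemal complex proteins Sycp1, Sycp2 and Sycp3 rose, Sycp1 from 2.19 and 2.18 to 26.9 and 27.9 FPKM and Sycp3 from 14.8 and 12.9 to 75.03 and 71.6 FPKM. The testis transcription factor Taf7l rose from 3.79 and 4.04 to 125 and 120.2 FPKM, Tex13b from 0.951 and 1.34 to 44.8 and 44.9 FPKM and the testis ADP/ATP carrier Slc25a31 from 4.88 and 4.54 to 37.3 and 37.2 FPKM. In the piRNA pathway Asz1 rose from 2.01 and 1.93 to 23.1 and 23.4 FPKM and Piwil2 from 6.47 and 6.03 to 23.3 and 23 FPKM. The 4 that fell were Tex15, Zcwpw1, Smc1b and Nanos3, Tex15 from 11.8 and 10.1 to 4.72 and 4.25 FPKM. Taf7l and Tex13b lie on the X chromosome, and centring chromosomes took Taf7l from 4.65 to 4.26.

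Many germline promoters are silenced in stem cells through an E-box, CACGTG, read by the MGA and MAX subunits of the repressor complex PRC1.6. Those letters (the same on both strands) were present in 13 of 34 members in the promoter table (38.2%), in 2187 of 27025 promoters of all genes (8.09%) and in 1174 of 9818 of tested genes (11.96%). The list was chosen with earlier results of these data known, so the share describes the list and does not test it. Of the 1174 tested genes with the E-box 559 rose and 406 fell, close to the shares over all genes. A match is a run of letters, and no binding was measured here. The 250 bases before the start of 3 of the members with the largest rises and a match are shown, Sycp1 (chr3:102936101-102936350, minus strand), Taf7l (chrX:134476491-134476740, minus strand) and Slc25a31 (chr3:40708621-40708870, plus strand), from RefSeq (GRCm38.p6), with the E-box in capitals; its first base lies 94, 49 and 93 bases before the start.
Sycp1: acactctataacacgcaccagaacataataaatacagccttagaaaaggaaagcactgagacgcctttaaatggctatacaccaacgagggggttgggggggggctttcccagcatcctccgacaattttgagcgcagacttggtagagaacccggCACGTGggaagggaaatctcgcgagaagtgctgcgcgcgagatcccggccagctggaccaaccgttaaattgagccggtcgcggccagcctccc
Taf7l: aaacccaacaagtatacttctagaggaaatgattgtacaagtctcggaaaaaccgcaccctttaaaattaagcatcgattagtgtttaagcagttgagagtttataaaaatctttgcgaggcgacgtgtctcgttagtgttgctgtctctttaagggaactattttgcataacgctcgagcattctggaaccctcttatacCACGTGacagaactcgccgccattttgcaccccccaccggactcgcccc
Slc25a31: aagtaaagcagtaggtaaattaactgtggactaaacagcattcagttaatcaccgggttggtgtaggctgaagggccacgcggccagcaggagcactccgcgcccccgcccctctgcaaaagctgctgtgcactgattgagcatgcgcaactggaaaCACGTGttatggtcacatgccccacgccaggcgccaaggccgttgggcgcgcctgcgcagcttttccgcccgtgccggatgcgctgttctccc

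Of 15 PRC1.6 subunits 8 fell and 3 rose (12 and 2 after scaling). L3mbtl2 fell from 40.7 and 41.8 to 19.3 and 19.8 FPKM, Pcgf6 from 57.4 and 58.9 to 33.9 and 31.2 FPKM, Mga from 49.5 and 46.98 to 34.04 and 33.7 FPKM and Max from 58.8 and 63 to 48.9 and 47.9 FPKM. E2f6, which binds other germline promoters, rose from 8.03 and 9.01 to 19.8 and 20.7 FPKM. Of 12 PRC2 subunits 9 fell and 3 rose (9 and 2 after scaling), among them Suz12 and Ezh1 on chromosome 11, Suz12 from 211 and 210.3 to 127 and 120.1 FPKM, and Ezh2 from 103 and 101 to 72.6 and 71.9 FPKM. In DNA methylation the de novo enzyme Dnmt3b fell from 59.5 and 59.1 to 17.9 and 17.5 FPKM and the oxidase Tet1 from 64.4 and 59.5 to 18.8 and 19.5 FPKM, whereas Dnmt3l and, before scaling only, Dnmt1 rose, Dnmt3l from 103 and 103 to 166 and 168 FPKM. The methyl-binding Mbd2 rose from 6.18 and 7.36 to 30.5 and 29.6 FPKM. Methylation itself was not measured.

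Of imprinted genes, expressed from 1 parental copy, 19 of 27 tested members rose and 5 fell (15 and 9 after scaling), with a median of 0.59 (0.35 after scaling), 2 passing the filter only through the knockdown. Among paternally expressed members Peg10 went from 57.3 and 55.04 to 628 and 633 FPKM, Nnat from 6.79 and 6.18 to 53.2 and 50.9 FPKM, Sgce, the neighbour of Peg10, from 4.298 and 4.299 to 32.5 and 33.3 FPKM, and Plagl1 from 9.22 and 8.01 to 41.4 and 46.5 FPKM. Peg3 and Usp29, which share a locus, fell, Peg3 from 25.2 and 22.9 to 10.4 and 10.3 FPKM. Usp29 passed the filter only through the controls. Among maternally expressed members Phlda2 fell from 31.4 and 32.7 to 7.69 and 7.62 FPKM and H19 rose from 69.4 and 67.2 to 119 and 123 FPKM, while Meg3 had no call, at 98.4 and 94.9 against 91.4 and 98.1.

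Markers of the lineages that stem cells form did not rise together. Summed over the table, trophoblast genes went from 182 and 186 FPKM to 1362 and 1387, of which Peg10, Krt19, Krt8 and Krt18 made up most. The keratins Krt8, Krt18 and Krt19 mark simple epithelia in general, and Krt8 went from 8.63 and 9.42 to 105 and 107 FPKM. Of 15 tested trophoblast genes 12 rose and 3 fell (10 and 3 after scaling), 2 passing the filter only through the knockdown and 1 only through the controls. Of the 8 factors among them 5 rose and 3 fell (4 and 3 after scaling), and the tested factors summed to 45.6 and 44.2 FPKM in the controls and 52.3 and 53.5 in the knockdown. Cdx2 was at 0 and 0.0759 against 0.213 and 0.141 FPKM, and Elf5 and Gata3 were below the filter. Eomes, which passed the filter only through the controls, fell from 1.66 and 1.43 to 1.04 and 0.931 FPKM. Esx1, on the X chromosome, rose from 5.37 and 5.01 to 22.7 and 22.3 FPKM. Primitive endoderm genes summed to 469 and 473 FPKM in the controls and 466 and 474 in the knockdown. Of 14 tested 8 rose and 5 fell (6 and 6 after scaling), 3 passing the filter only through the knockdown. Among those 3, Afp, the fetal albumin-like protein, went from 0.0650 and 0.0624 to 4.81 and 5.75 FPKM. Gata6, another of them, went from 0.678 and 0.756 to 1.77 and 2.42 FPKM. Of the 2 tested primitive endoderm factors, Gata6 rose and the other fell, with a change of -1.48. Mesoderm genes summed to 76.9 and 77.7 against 49.3 and 51.2, with brachyury (T) at 0.197 and 0.126 against 0.141 and 0.207. The marker Pecam1, on chromosome 11, carried that difference, falling from 62.3 and 62.7 to 23.1 and 24.01 FPKM. The 5 tested mesoderm factors went the other way, from 5.71 and 5.32 to 15.4 and 15.96 FPKM in sum, with 3 rising, Cdx1 and Twist1 among them, and 2 falling, each having passed the filter through 1 group only. Neuroectoderm genes summed to 97.7 and 98.3 against 68.9 and 67.7. Of 11 tested 6 rose and 4 fell (5 and 4 after scaling), 3 passing the filter only through the knockdown and 1 only through the controls. Markers of feeder fibroblasts summed to 21.8 and 22.1 against 21.4 and 22.6, with Col1a1 at 0.649 and 0.608 against 0.820 and 0.804, and markers of blood cells to 3.30 and 4.38 against 2.68 and 2.43. In bulk RNA a few cells with a high level and many with a low one cannot be told apart.

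Genes of a mesenchymal, adherent cell shape rose: all 10 tested members rose (9 of 9 tested after scaling), 4 of them passing the filter only through the knockdown. Vimentin Vim went from 32.4 and 32.9 to 62.2 and 65.3 FPKM, the galectin Lgals1 from 28.96 and 27.9 to 287 and 288 FPKM, the annexins Anxa1 and Anxa2 from 3.34 and 3.28 to 39.8 and 39.3 FPKM and from 55.5 and 54.9 to 290.3 and 300.4 FPKM, and N-cadherin Cdh2 from 0.702 and 0.691 to 3.07 and 3.15 FPKM. Of 10 integrins 8 rose and 0 fell (7 and 2 after scaling), 2 of them passing the filter only through the knockdown, led by Itga3 from 6.81 and 6.25 to 37.4 and 40.9 FPKM and Itgav from 7.77 and 7.12 to 22.6 and 23.2 FPKM. The lysyl oxidase Loxl2, which cross-links collagen, rose from 3.56 and 3.68 to 32.01 and 32.3 FPKM, while fibronectin Fn1, on chromosome 1, fell from 171 and 165 to 119 and 123 FPKM. Epithelial junction genes were divided, 5 of 15 rising and 9 falling (4 and 10 after scaling). E-cadherin Cdh1 fell from 178 and 178 to 126 and 128 FPKM and the splicing factor Esrp1 from 31.5 and 29.9 to 3.85 and 4.24 FPKM, and the desmosomal Dsp and Dsg2 rose, Dsp from 8.63 and 8.32 to 22.03 and 22.3 FPKM.

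Growth genes fell broadly. In ribosome biogenesis 33 of 38 fell and 2 rose (36 and 0 after scaling), with a median of -0.79 (-1.03 after scaling); nucleolin Ncl went from 519.7 and 525 to 255 and 249 FPKM and the RNA polymerase I subunit Polr1b from 41.02 and 40.4 to 15.1 and 14.98 FPKM. Of 82 cytosolic ribosomal protein genes 57 fell and 8 rose (75 and 4 after scaling), with a median of only -0.21 (-0.46 after scaling), and Rpl3l, a muscle form, was the only one with a fold of 2 or more, from 0.911 and 1.25 to 4.72 and 6.08 FPKM. Mitochondrial ribosomal proteins fell in 47 of 77 and rose in 17 (59 and 4 after scaling), Mrpl15, on chromosome 1, from 60.5 and 64.3 to 17.6 and 18.6 FPKM. The nuclear respiratory chain genes gave 30 rises and 23 falls of 73, a balance that scaling turned to 15 and 47, with medians of 0.03 and -0.21. Among 13 genes for nucleotides and polyamines 12 fell and 0 rose (13 and 0 after scaling), Hprt among them, and the spermidine synthase Srm went from 83.7 and 90.5 to 24.6 and 25.6 FPKM. In the glycine cleavage system Gldc fell from 109.7 and 111 to 31.7 and 31.4 FPKM and Gcsh from 130.2 and 130.0 to 42.1 and 41.1 FPKM.

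Cell division genes fell. Of 26 mitotic genes 22 fell and 1 rose (26 and 0 after scaling), with a median of -0.55 (-0.80 after scaling), and Aurka went from 68.5 and 69.8 to 34.2 and 34.1 FPKM. Of 28 replication genes 21 fell and 6 rose (24 and 3 after scaling), with a median of -0.48 (-0.73 after scaling); Cdt1, which loads the helicase, went from 52.2 and 51.9 to 19.6 and 18.95 FPKM. The proliferation markers Mki67 and Cdk1 had no call, at 47.4 and 44.1 against 43.5 and 42.8 and 36.7 and 36.5 against 35.3 and 34.97 FPKM. Of 9 inhibitors of the G1 phase 7 rose and 1 fell (7 and 2 after scaling), Cdkn2d from 3.87 and 4.31 to 13.2 and 12.5 FPKM and Cdkn2a from 16.7 and 14.9 to 32.96 and 35.7 FPKM. Cyclin D1 (Ccnd1) fell from 38.6 and 37.7 to 11.6 and 11.9 FPKM and cyclin E2 (Ccne2) rose from 8.93 and 8.62 to 27.3 and 23.99 FPKM.

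Metabolic gene lists went in different directions. Hypoxia-inducible genes rose in 9 of 10, with 1 falling (8 and 2 after scaling), among them the growth factor Vegfa from 20.1 and 19.1 to 75.95 and 75.2 FPKM, the collagen hydroxylase P4ha1 from 33.8 and 32.6 to 118 and 119 FPKM and Bnip3 from 134 and 133 to 307 and 301 FPKM. The glucose transporters Slc2a1 and Slc2a3 rose, from 171 and 173 to 516 and 541 FPKM and from 2357 and 2373 to 6759 and 6737 FPKM, while of 16 glycolytic enzymes 6 rose and 8 fell (3 and 10 after scaling), and Ldhb fell from 172 and 178 to 46.4 and 45.2 FPKM. Cholesterol synthesis genes rose in 21 of 22, with 1 falling (18 and 2 after scaling), at a median of 0.76 (0.52 after scaling), and the desaturase Scd2 rose from 78.1 and 77.6 to 258 and 259 FPKM. Lysosomal genes rose in 16 of 23 and fell in 4 (15 and 8 after scaling), cathepsin B (Ctsb) from 18.2 and 18.4 to 51.4 and 51.6 FPKM and Cd63 from 38.9 and 45.5 to 138 and 134 FPKM, whereas the autophagy kinase Ulk1 fell from 37.9 and 36.5 to 13.4 and 13.1 FPKM.

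Interferon-stimulated genes fell. Of 11 tested interferon genes 0 rose and 9 fell (0 and 10 after scaling), with a median of -1.26 (-1.48 after scaling). Ifitm1, Ifitm2 and Ifitm3, membrane proteins that stem cells express without interferon, fell, Ifitm1 from 162 and 168 to 3.55 and 4.26 FPKM and Ifitm3 from 103 and 116 to 13.2 and 12.96 FPKM. Bst2 fell from 61.2 and 61.6 to 18.3 and 18.1 FPKM and the factor Irf1 from 35.2 and 36.7 to 13.1 and 12.2 FPKM. Of 8 MHC class I genes 4 rose and 2 fell (3 and 2 after scaling), close to the shares over all genes: H2-D1 went from 6.04 and 6.14 to 26.6 and 26.1 FPKM and its partner B2m from 18.4 and 18.8 to 63.8 and 58.1 FPKM, while the immunoproteasome subunit Psmb8 fell from 3.65 and 3.14 to 0.414 and 0.325 FPKM. Psmb8 passed the filter only through the controls.

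**Figure D5:**
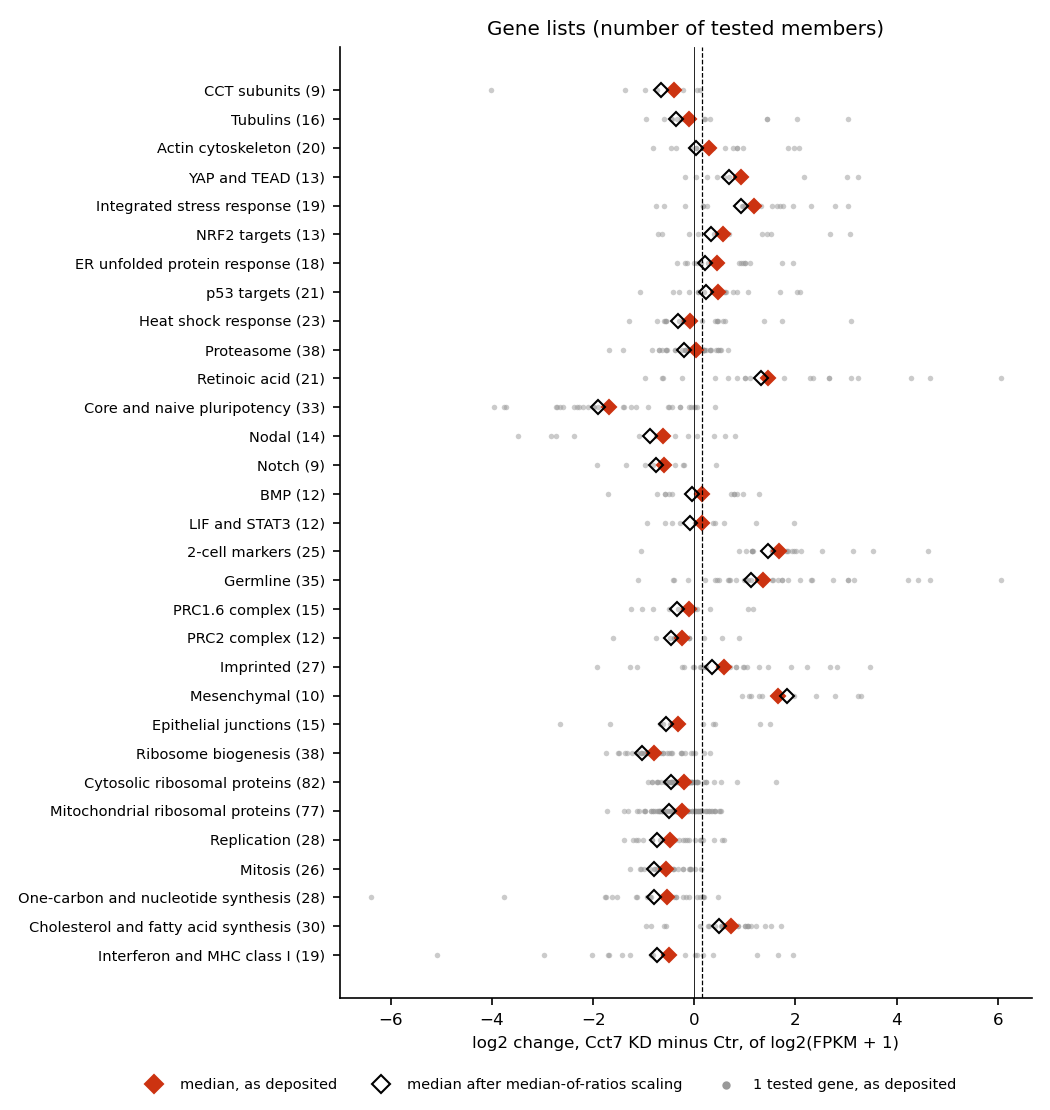
Log2 change of each tested member of 31 gene lists (grey points, number of members in parentheses), with the list's median as deposited (red) and after median-of-ratios scaling (open); the dashed line marks the median of all genes. Pluripotency genes lie lowest by median, and 2-cell, mesenchymal, germline, retinoic acid and integrated stress response genes highest. The medians include members that passed the filter only through the knockdown libraries or only through the controls, which fixed their direction.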

How the data were processed

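Poly(A) RNA of 4 groups of 2 libraries was sequenced, per the labels' protocols, as strand-specific paired reads. The authors deposited FPKM per gene, and per the submitters' processing notes used HTSeq and the mm10 assembly. The sources used here name no version, aligner, annotation, gene length or filter. The Cct7 table held 20909 entries; 6 IDs listed 2 times were left out, and 31 had no symbol in the GENCODE annotation (GRCm38) used for names and coordinates. In total 20897 genes remained.

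Genes averaging 1 FPKM or more across the 4 libraries entered limma 3.58.1 (R 4.3.3, moderated variances with a trend in the mean) on log2(FPKM + 1) without further scaling, with Benjamini-Hochberg adjusted p under 0.05 as the threshold. Only the 4 libraries of this comparison entered the fit. Depth came from genes with 1 annotated transcript, in which 99.1% to 99.3% of low values were whole fragments within 0.05. Since FPKM are not counts, no count model was used, and the precision of low values follows from the FPKM of 1 fragment.

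The members and the 61 gene lists were chosen with earlier results of these data known. Named genes were the CCT subunits, the 15 largest rises and falls, up to 4 changed members of each list and direction, members of lists of at most 15, and Hprt, its companion pseudogenes, Y-linked genes and markers of other cells; further members, among them Atf4, Hspa5, Hspa8, Tcp1, Actb, Yap1, Cdkn1a, Mdm2, Piwil2, Setdb1, Mki67, Cdk1, Zscan4c, Zscan4d and H19, were named after their values were seen. List members without an entry in the table were not analysed here, and some results are not reported here. Alternatives were 2 scalings, a pseudocount of 0.1, no filter, a 2-fold minimum, a block for the replicate number, leaving out each library and, added after seeing the data, centring each chromosome and leaving out genes of chromosomes 1, 11 and X.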

Additional observations from a re-analysis of the deposited data

How the results depend on the processing

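With no filter 9115 genes rose and 5201 fell, with a pseudocount of 0.1 6687 and 4338, and with scaling to a common FPKM total 7149 and 3975; a fold of at least 2 left 1837 and 897. Leaving out each library gave 6076 to 6624 rises and 4021 to 4159 falls. The replicate block gave 6633 rises and 4335 falls; the numbers do not pair the samples (the deviations of same-numbered libraries had r = -0.038 across genes, which are not independent). Cct7 stayed called in every setting.

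Scaling by median of ratios reversed the medians of these lists: Proteasome (-0.212), Mesoderm (-0.341), Neuroectoderm (-0.006), LIF and STAT3 (-0.094), FGF and ERK (-0.026), BMP (-0.048), WNT (-0.081), nuclear respiratory chain (-0.213), G1 phase (-0.064), replication histones (-0.086) and feeder fibroblast markers (-0.168). Among named genes it turned the rise of Cct8 into a fall (-0.141) and ended that of Tuba3a (-0.028). Genes with no call became falls, Tcp1 (-0.203), Actb (-0.216), Yap1 (-0.205), Klf5 (-0.184), Tfcp2l1 (-0.225) and Setdb1 (-0.183) with a turned sign and Xbp1, Hspa8, Hsph1, Dppa2, Meg3, Mki67 and Cdk1 with the same sign; Hspa1b (-0.019) and Axin2 (-0.081) remained without a call, and Dnmt1 lost its rise (0.047). Scaling to a common total turned the sign of the uncalled Xbp1 (0.055), Hsph1 (0.020), Meg3 (0.033) and Cdk1 (0.004). Centring each chromosome reversed Cct8 (-0.087), Tuba3a (-0.046), Tcp1 (-0.037), Actb (-0.152), Yap1 (-0.235), Klf5 (-0.236), Setdb1 (-0.226) and Xbp1 (0.259). Without genes of chromosomes 1, 11 and X the medians of tubulins (0.2), heat shock (0.055), BMP (-0.438) and replication histones (-0.044) changed sign.

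Without the second control library the medians of tubulins (0.007) and of the mitochondrial genome's genes (0.078) changed sign, as did Xbp1 (0.013) and Tfcp2l1 (-0.021). Without the first knockdown library the medians of mesoderm (-0.158) and replication histones (-0.266) and the sign of Meg3 (0.021) changed, and without the second those of mesoderm (-0.167) and Xbp1 (0.033). Over the libraries left out, the ranges were -0.045 to 0.033 for Xbp1, -0.021 to 0.054 for Tfcp2l1, -0.080 to 0.021 for Meg3, -0.218 to 0.007 for tubulins, -0.167 to 0.061 for mesoderm, -0.295 to 0.078 for the mitochondrial genome and -0.266 to 0.158 for replication histones. The cause was not tested. Depth limits genes near 0, where a value rests on few fragments, and 2 libraries a group limit every error.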

Other observations

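Of 110 tested snoRNA genes 5 rose and 63 fell, with a median of -0.82, against 0.19 over 11919 protein-coding genes. Libraries were made from poly(A) RNA, and the sources used here do not say how reads of an intronic snoRNA and its host gene were divided. Transcripts named for their link to pluripotency (Platr) fell in 13 of 18 tested cases and rose in 2 (15 and 2 after scaling), Platr10 from 132 and 142 to 9.47 and 9.44 FPKM and Platr7 from 11.9 and 11.6 to 0.613 and 0.714 FPKM, while Platr15 rose from 0.408 and 0.614 to 2.94 and 3.03 FPKM. Platr7 passed the filter only through the controls and Platr15 only through the knockdown, which fixed their direction. The 309 tested numbered zinc finger genes, many of which silence transposons through Trim28, had 170 rises and 70 falls (128 and 107 after scaling), 55.0% and 22.7% against 49.3% and 32.0% over all genes, and a median of 0.26 (0.05 after scaling).

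Other groups had mixed directions. Amino acid transporters rose in 7 of 17 and fell in 9 (6 and 10 after scaling), the neutral transporter Slc38a2 from 113 and 109 to 48.5 and 48.3 FPKM and its relative Slc38a1 from 8.51 and 7.93 to 20.4 and 21.7 FPKM. In iron handling the transferrin receptor Tfrc rose from 184 and 180.3 to 257 and 255 FPKM and transferrin Trf from 2.6 and 2.29 to 5.99 and 6.27 FPKM. The change also went with level, though not from the lowest level on. Its median was 0.26 for genes with a mean of 1 to 3 FPKM, 0.29 from 3 to 10 and 0.14 from 10 to 30. It was -0.04 from 30 to 100, -0.08 from 100 to 300 and -0.20 above 300. The aryl hydrocarbon-inducible Cyp1a1 (from 0.282 and 0.398 to 17.5 and 17.3 FPKM), the casein Csn3 (from 0.0451 and 0.0433 to 60.5 and 61.9 FPKM), the matrix protein Tinagl1 (from 0.879 and 0.823 to 47.96 and 48.3 FPKM) and the ubiquitin ligase Mid1 (from 0.127 and 0.0778 to 16.1 and 15.5 FPKM) were among the 15 largest rises and belong to none of the groups above, as do Apela (from 25.4 and 25.2 to 0.987 and 0.978 FPKM) and Ephx2 (from 34.2 and 35.2 to 2.46 and 2.19 FPKM) among the 15 largest falls. The other genes of those rankings not given above were Anxa3 (from 1.598 and 2.21 to 38.3 and 37.5 FPKM), Anxa5 (from 2.299 and 2.55 to 37.6 and 37.3 FPKM) and Afap1l1 (from 1.16 and 0.847 to 21.7 and 22.5 FPKM), which rose, and Dppa3 (from 65.2 and 75.4 to 4.39 and 4.39 FPKM), Nav2 (from 17.6 and 16.3 to 0.700 and 0.689 FPKM) and Enpp3 (from 16.3 and 16.1 to 0.713 and 0.647 FPKM), which fell. Cyp1a1, Csn3, Tinagl1 and Mid1 passed the filter only through the knockdown, and Apela, Nav2 and Enpp3 only through the controls.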
